A study of Homo sapiens with 6 samples.

Results

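TRIM genes encode tripartite motif proteins, most of which are ubiquitin ligases, and their RNA was compared between KD and NC libraries of THP-1, a human leukemia line of monocytic type. The members are the 76 genes of the deposited table, out of 61267, whose symbol is TRIM followed by digits and at most a single letter, together with PML, which is TRIM19 by another name. The KD group and the NC group had 3 libraries each, of THP-1 cells kept for 48 h with the phorbol ester PMA (100 ng/ml), under which these cells adhere and take on macrophage features. No target of KD, no reagent and no clone is named in the labels, and the series title speaks of METTL1, the enzyme that places 7-methylguanosine in RNA, and of acute inflammation. Separate cultures within a group are not stated, so the p-values reflect only the spread among these libraries, and that spread may be technical.

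A tripartite motif is a RING finger, which recruits a ubiquitin-charged E2 enzyme, followed by B-box zinc fingers and a coiled coil through which the proteins pair. The domain after the coiled coil differs between members and selects the target: a PRY-SPRY domain in antiviral factors such as TRIM5, TRIM21 and TRIM25, NHL repeats in RNA-binding members such as TRIM71, and a PHD finger with a bromodomain in the chromatin regulators TRIM24, TRIM28 and TRIM33. In macrophages several members are induced by interferon and act in the sensing of viral nucleic acid, while others are known mainly from muscle, nerve or the early embryo.

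Total counts ran from 41547814 to 42608884 in the KD libraries and from 37628972 to 42970216 in the NC libraries. METTL1 stood at 13.7 ± 0.605 CPM in KD and 14.8 ± 1.01 CPM in NC (depth-scaled counts, TMM, mean ± SD, n = 3 each), which did not pass the test (log2 fold change -0.10, SE 0.076, edgeR adjusted p = 0.216). It was lower in KD by library size (-0.29, edgeR adjusted p = 0.00249), where the median of all tested genes was -0.23. It was also lower on a scale set by 58 leukocyte-restricted genes, the leukocyte scale (-1.35, edgeR adjusted p = 8.92e-15), where that median was -1.29. Directions below compare the libraries labelled KD with those labelled NC. Leukocyte genes were present in both groups. The summed level of 58 leukocyte-restricted genes was 13645 to 13999 CPM in KD and 5480 to 5662 CPM in NC. Of all tested genes 36.2% were higher and 40.3% lower in KD, while all 58 of these were higher. On a scale set by these genes themselves, 3.09% of all tested genes were higher and 84.4% lower. There 19 of the 58 were higher and 24 lower. In NC the highest of them, LCP1 (mean 913.5 CPM), stood below the neurofilament gene NEFM (mean 1595.5 CPM). Several genes of other cells were high in NC. The calls in their lists are to be read against the same 36.2% higher and 40.3% lower. All these marker lists were chosen with earlier results of these data known. Of 11 epithelial junction and keratin genes, 8 were lower in KD and 1 higher, and the list summed to 22.7 to 24.6 CPM in KD and 663 to 708 CPM in NC. Most of the NC sum was DSP (mean 389.3 CPM) and DSG2 (143.9 CPM). CDH1 (0.997 CPM), EPCAM (2.84 CPM) and KRT19 (0.812 CPM) were low in NC, and CLDN7 was higher in KD (log2 fold change 1.17). Of 8 neuronal genes, 4 were lower and 2 higher, with a sum of 11 to 11.4 CPM in KD and 1586 to 1947 CPM in NC, and STMN2 had no count in KD and DCX none in either group. Of 8 progenitor and embryonic genes 7 were tested, all lower, with a sum of 0.816 to 1.19 CPM in KD and 419 to 423 CPM in NC, and LIN28B, ID4, PAX3 and POU3F3 had no count in KD. The 7 lymphoid genes summed to 0.811 to 0.915 CPM in KD and 1.64 to 2.09 CPM in NC. In bulk RNA, fewer cells of a type and less RNA per cell cannot be told apart, and the part of these lists in the results on TRIM genes was not tested.

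Interferon-responsive promoters are the best known shared feature of the antiviral members, so the promoters were searched for the core of the interferon-stimulated response element (GAAA, any 2 bases, GAAA) on both strands. RefSeq promoters (GRCh38.p14, 250 bases before to 50 bases after the start) were matched for 58 of the 76 members, 40 of them among the members tested below. The core was found in 9 of those 40 promoters (22.5%), and in 3.57% of 35116 promoters of the same length. Of the 9, 5 belonged to members higher in KD on the TMM scale (TRIM2, TRIM5, TRIM21, TRIM34, TRIM69) and 4 to members lower in KD (TRIM14, TRIM16, TRIM26, TRIM44). On the leukocyte scale, where the median of all genes was -1.29, TRIM2 was higher (0.28). There TRIM5 (-1.01), TRIM21 (-0.44), TRIM34 (-0.47) and TRIM69 (-0.69) were lower, as were TRIM14, TRIM16, TRIM26 and TRIM44. A match is a description of the letters and not a site. The stretches before the start are shown for 3 members of each direction, with the matched core in capitals and the gene's own strand 5′ to 3′. They were chosen because the pattern, with differing letters in its middle and in either orientation, stands before genes that went opposite ways on the TMM scale. They lie at chr11:5685075-5685131 (minus strand) for TRIM5, chr11:5624881-5624950 (plus) for TRIM34, chr15:44736436-44736505 (plus) for TRIM69, chr9:98119223-98119278 (minus) for TRIM14, chr6:30213555-30213630 (minus) for TRIM26 and chr11:35662710-35662774 (plus) for TRIM44.
TRIM5: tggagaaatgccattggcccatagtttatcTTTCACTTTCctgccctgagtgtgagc
TRIM34: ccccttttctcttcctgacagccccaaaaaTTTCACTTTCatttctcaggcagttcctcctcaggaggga
TRIM69: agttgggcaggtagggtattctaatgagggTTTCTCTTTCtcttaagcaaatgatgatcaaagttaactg
TRIM14: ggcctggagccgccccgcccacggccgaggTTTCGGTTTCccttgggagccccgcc
TRIM26: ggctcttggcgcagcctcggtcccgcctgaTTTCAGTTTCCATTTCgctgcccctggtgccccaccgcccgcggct
TRIM44: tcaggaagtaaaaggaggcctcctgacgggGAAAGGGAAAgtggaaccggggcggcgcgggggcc
The TRIM26 stretch holds 2 overlapping cores, and in TRIM5 the core ends 18 bases before the start. In TRIM21 the promoter window holds 2 overlapping cores after the start, from base 18 to base 33. The AP-1 site TGANTCA, a motif of the factors that phorbol ester activates, was found in 6 of the 40 promoters (15.0%), against 7.71% of all promoters. On the TMM scale 3 of the 6 members were higher in KD, 2 were lower and 1 did not pass. The E-box CACGTG was found in 3 of 40 (7.5%), against 7.26% of all, in TRIM25, TRIM46 and TRIM66.

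The main question was which TRIM genes differed between KD and NC. Of the 76 members, 16 had no count in any library, 7 had too few counts for the test and 53 were tested. Among the 53, 22 members were higher in KD (41.5%) and 26 lower (49.1%), and 5 did not pass (edgeR quasi-likelihood test, Benjamini-Hochberg adjusted p of 0.05 over 21905 genes). Over all tested genes 36.2% were higher and 40.3% lower, so that the members' shares were near this background. The CPM ranges of the groups did not overlap for 22 members with KD above NC and 27 with KD below NC, against 36.7% and 41.3% of all tested genes (78.0% in either direction). The median log2 fold change of the 53 members was -0.16 and that of all tested genes -0.05. At least 2-fold changes were found for 6 members that rose (11.3%, against 12.6% of all tested genes) and 11 that fell (20.8%, against 22.9%). The falls reached further than the rises: the log2 fold changes, KD over NC, ran from -6.37 to 1.63. Over all tested genes they ran from -14.79 to 7.29, so this was not particular to the members.

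The counts depend on the scaling. On the leukocyte scale, 2 members were higher and 48 lower in KD, against 3.09% and 84.4% of all tested genes, and the median of all genes was -1.29 in place of -0.05. Using library sizes by themselves, 18 members were higher and 29 lower, against 28.4% and 47.3% of all tested genes, and the median of all genes was -0.23. A member at -1.29 on the leukocyte scale thus stood where the middle gene stood. Each rise below is on the scale of all genes unless the leukocyte scale is named.

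**Figure D1:**
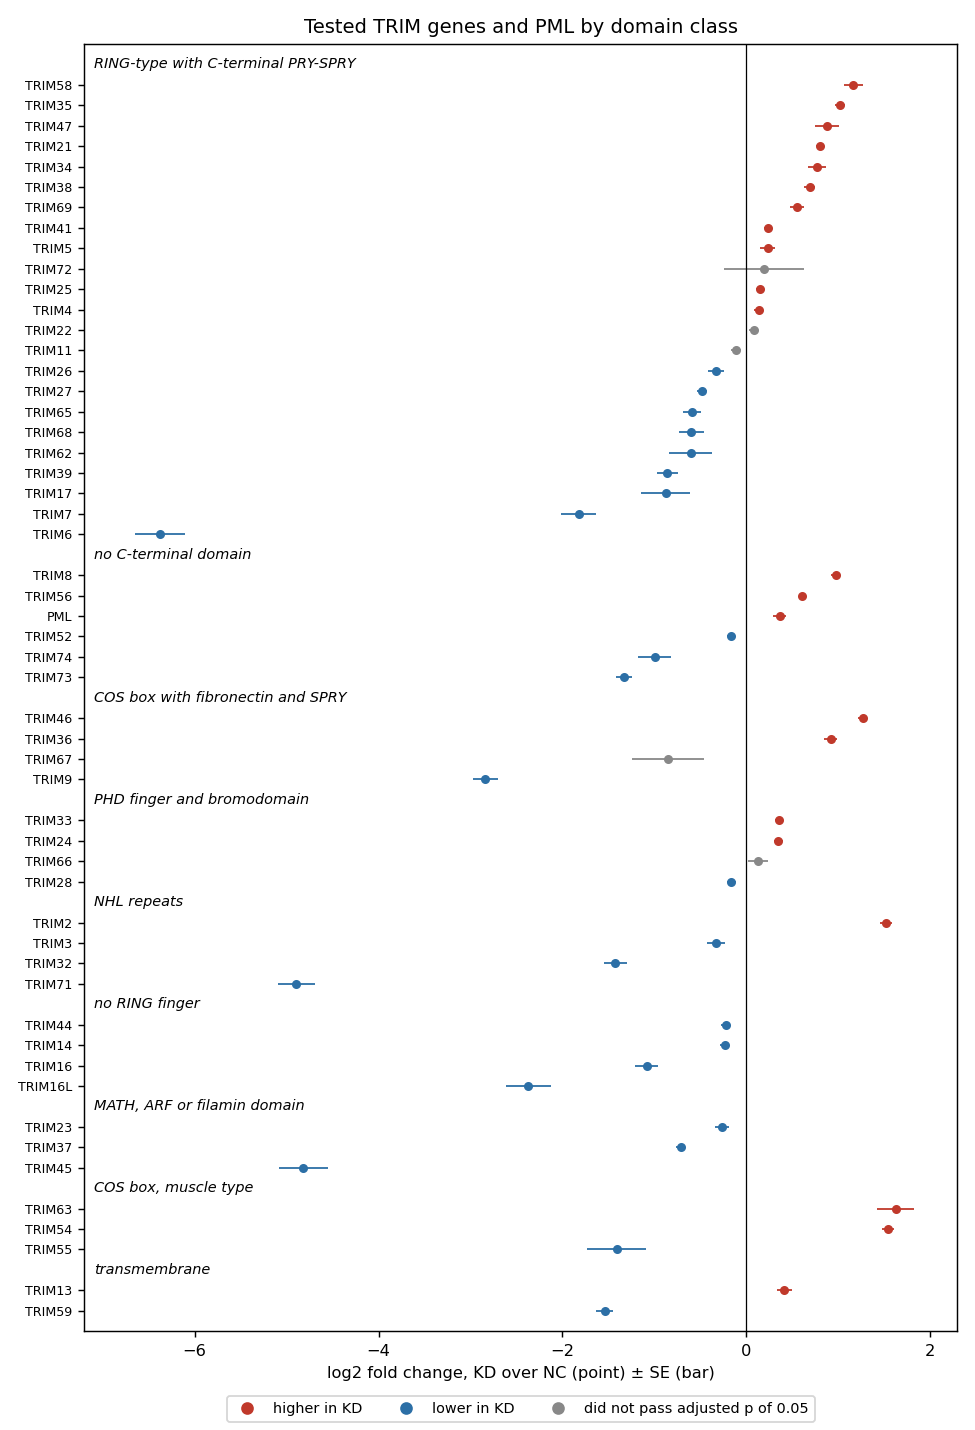
The log2 fold change, KD over NC, of the 53 tested members (points) with its SE (bars) on the scale of all genes, grouped by domain class. The points run from -6.37 for TRIM6 to 1.63 for TRIM63, and 21 of the members above 0 lie below 0 on the leukocyte scale.

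The muscle-type members with a COS box, a microtubule-binding stretch, held the largest rises. TRIM63 (chr1:26051301-26068436, minus strand, also MuRF1), the ligase that marks thick-filament proteins for degradation in muscle, stood at 3.35, 2.63 and 2.58 CPM in the KD libraries and at 0.901, 1.07 and 0.797 CPM in the NC libraries. All KD libraries were above all NC libraries, though the gene was low in both. The gene rose by 1.63 on the log2 scale (SE 0.20, edgeR adjusted p = 8.76e-08), and 0.39 on the leukocyte scale, where it did not pass. TRIM54 (chr2:27282429-27307439, plus strand, also MuRF3), which stabilises microtubules in striated muscle, had 35.9, 38.9 and 39.9 CPM in KD, against 12.2, 13.5 and 13.6 CPM in NC. The groups lay far apart without overlap (log2 fold change 1.54, SE 0.065, edgeR adjusted p = 7.80e-17), and TRIM54 also passed on the leukocyte scale at 0.30. TRIM55 (MuRF2), the remaining muscle RING finger gene, had 0.661, 0.23 and 0.456 CPM in KD and 1.14, 1.02 and 1.42 CPM in NC. It fell, by 1.41 on the log2 scale (SE 0.32, edgeR adjusted p = 3.73e-04), so the relatives went opposite ways. TRIM42, the last of this class, had no count.

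The microtubule-associated members of nerve cells were split. TRIM46 (chr1:155173787-155184971, plus strand), which bundles microtubules at the start of the axon in rodent neurons, had 71.3, 67.2 and 64.2 CPM in KD and 27.6, 27.7 and 28.7 CPM in NC. It rose on the scale of all genes (log2 fold change 1.27, SE 0.050, edgeR adjusted p = 1.96e-17) and was at 0.03 on the leukocyte scale, without passing. TRIM36, of the same class and known from the sperm acrosome, had 26.8, 27.6 and 31.5 CPM in KD, against 14.8, 14.8 and 15.7 CPM in NC. It rose by 0.92 on the log2 scale (SE 0.070, edgeR adjusted p = 9.26e-12), and -0.32 on the leukocyte scale. TRIM9 (chr14:50975262-51096061, minus strand), a brain ligase that acts on axon branching in mouse neurons, went the other way, with 1.40, 1.25 and 1.27 CPM in KD and 9.42, 9.73 and 8.88 CPM in NC. It fell by 2.84 on the log2 scale (SE 0.13, edgeR adjusted p = 5.63e-16), and by 4.08 on the leukocyte scale. Their low relative TRIM67 was at 0.322 ± 0.106 CPM in KD and 0.580 ± 0.175 CPM in NC and did not pass (log2 fold change -0.85, SE 0.39, edgeR adjusted p = 0.0539), but passed without KD replicate 1 (adjusted p = 0.0474) or NC replicate 1 (adjusted p = 0.0320), by library size (-1.04, adjusted p = 0.0207) and on the leukocyte scale (-2.08, adjusted p = 2.57e-05). In the same libraries the summed neuronal list stood at 11 to 11.4 CPM in KD and 1586 to 1947 CPM in NC. Most of the NC sum was the neurofilament gene NEFM, with 0.407, 0.357 and 0.405 CPM in KD and 1702, 1367 and 1717 CPM in NC. The list went both ways: NEFM, NEFL, INA and BEX2 were lower in KD, while ELAVL4 (log2 fold change 2.43) and MAP2 (0.55, and -0.68 on the leukocyte scale) were higher.

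Of the 4 members with NHL repeats, 1 rose and 3 fell, where 36.2% of all tested genes were higher and 40.3% lower. TRIM2 (chr4:153152163-153339319, plus strand), which ubiquitinates neurofilament light chain in mouse neurons, had 34.2, 34.1 and 36.0 CPM in KD, against 12.5, 11.2 and 12.7 CPM in NC. The groups did not overlap (log2 fold change 1.52, SE 0.066, edgeR adjusted p = 1.22e-16) and passed on the leukocyte scale as well, at 0.28. About 20% of its exon bases also belong to an unnamed gene on the same strand. That gene had 1420, 1420 and 1513 counts in KD and 1922, 1708 and 2129 in NC. TRIM2 had 1346, 1336 and 1421 counts in KD and 526, 458 and 575 in NC, so its own level is uncertain. TRIM71 (chr3:32817997-32897824, plus strand), the homologue of worm lin-41 and a target of the let-7 microRNA, had 0.305, 0.204 and 0.203 CPM in KD and 7.73, 6.66 and 7.04 CPM in NC. These were 12, 8 and 8 counts in KD and 326, 273 and 318 counts in NC. It fell by 4.89 on the log2 scale (SE 0.20, edgeR adjusted p = 5.56e-17). TRIM32, whose loss causes a limb-girdle muscular dystrophy, had 2.44, 2.63 and 3.01 CPM in KD and 7.16, 7.85 and 6.68 CPM in NC, without overlap. Its log2 fold change was -1.42 (SE 0.13, edgeR adjusted p = 2.51e-10). TRIM3, a brain member, fell by 0.33 (SE 0.096, edgeR adjusted p = 0.00349). Beside the fall of TRIM71, a gene of pluripotent cells, the progenitor and embryonic list stood at 0.816 to 1.19 CPM in KD and 419 to 423 CPM in NC, with LIN28B at 0 in KD. Most of that NC sum was IRS4 (mean 164.4 CPM), LIN28B (86.4 CPM), IGF2BP1 (70.6 CPM) and ID4 (62.7 CPM). In NC SALL4 (1.3 CPM) and LIN28A (0.0632 CPM) were low.

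**Figure D2:**
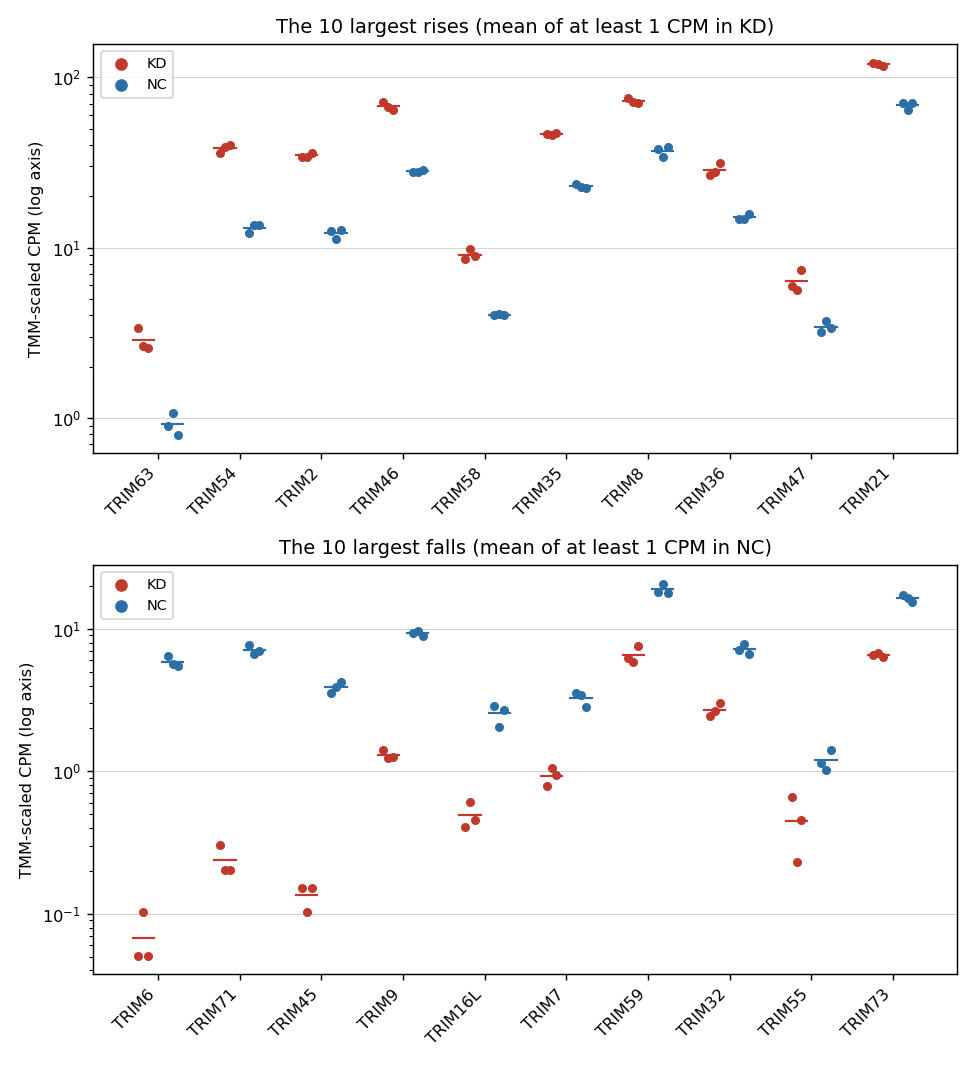
TMM-scaled CPM on a log axis in each library for the 10 largest rises (top) and the 10 largest falls (bottom) among members past the threshold, KD left and NC right for each gene, with a line at the mean of 3. The KD points lie apart from the NC points in all 20, which largely follows from choosing them by the size of their change. Over all tested genes the ranges did not overlap for 78.0%. Of the 10 that rose, TRIM63, TRIM54, TRIM2 and TRIM46 remain above 0 on the leukocyte scale.

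RING-type members with a C-terminal PRY-SPRY domain form the class of most known antiviral TRIM proteins. Members without a RING finger or with a COS box were counted in their own classes. Of 23 tested RING-type PRY-SPRY members, 11 were higher and 9 lower on the scale of all genes, against 36.2% and 40.3% of all tested genes. The leukocyte scale gave 0 higher and 22 lower, against 3.09% and 84.4% of all tested genes. TRIM21 (chr11:4384897-4393702, minus strand), the cytosolic antibody receptor that directs antibody-coated virus to the proteasome, had 122, 119.9 and 117 CPM in KD and 70.3, 63.9 and 70.8 CPM in NC. It rose by 0.81 on the log2 scale (SE 0.044, edgeR adjusted p = 1.70e-14), with -0.44 on the leukocyte scale, above the median of all genes. TRIM25, the ligase that activates the RNA sensor RIG-I, had 57.2, 55.5 and 57.6 CPM in KD, against 52.1, 51.3 and 49.7 CPM in NC. This difference was small (log2 fold change 0.15, SE 0.045, edgeR adjusted p = 0.00343) and was at -0.03 by library size and at -1.09 on the leukocyte scale. TRIM5, which recognises the retroviral capsid, had 15.1, 16.4 and 16.7 CPM in KD and 13.9, 15.0 and 12.1 CPM in NC. Its lowest KD library stood just above its highest NC library (log2 fold change 0.24, SE 0.082, edgeR adjusted p = 0.0116), and the call was lost without NC replicate 3 (adjusted p = 0.113) and with library sizes alone (adjusted p = 0.638), while the leukocyte scale gave -1.01. TRIM22, the neighbour of TRIM5 and a strongly interferon-induced gene in monocytes, had 63.1, 61.0 and 56.9 CPM in KD and 57.5, 56.4 and 57.0 CPM in NC. The ranges overlapped and the gene did not pass (log2 fold change 0.08, SE 0.046, edgeR adjusted p = 0.109), although it did without KD replicate 3 (adjusted p = 0.0202) and, in the other direction, with library sizes alone (log2 fold change -0.11, adjusted p = 0.0403) and on the leukocyte scale (-1.16).

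Other PRY-SPRY members with higher RNA in KD on the scale of all genes were all lower or without a call on the leukocyte scale. TRIM58, which degrades dynein in maturing mouse red cells, had 8.59, 9.82 and 8.87 CPM in KD and 4.01, 4.10 and 4.03 CPM in NC. The groups lay more than 2-fold apart (log2 fold change 1.17, SE 0.11, edgeR adjusted p = 3.61e-10), with -0.07 and no call on the leukocyte scale. TRIM35, which binds the pyruvate kinase PKM2, had 46.6, 45.7 and 46.9 CPM in KD, against 23.6, 22.8 and 22.4 CPM in NC (log2 fold change 1.02, SE 0.052, edgeR adjusted p = 3.30e-15, and -0.22 on the leukocyte scale). TRIM47 had 5.97, 5.61 and 7.42 CPM in KD, against 3.20, 3.73 and 3.39 CPM in NC (log2 fold change 0.88, SE 0.13, edgeR adjusted p = 1.47e-06, and -0.36 on the leukocyte scale), but 51.6% of its exon bases also belong to a gene on the other strand and whether strand was used in counting is unknown here. TRIM34, a close relative of TRIM5, rose by 0.77 (SE 0.095, -0.47 on the leukocyte scale), TRIM38, a negative regulator of Toll-like receptor signalling, by 0.69 (SE 0.059, -0.55), and TRIM69, an interferon-induced factor against vesicular stomatitis virus, by 0.56 (SE 0.076, -0.69). TRIM41 (0.24, SE 0.044) and TRIM4 (0.14, SE 0.050) rose least: with library sizes alone TRIM41 no longer passed (0.05, adjusted p = 0.224) and TRIM4 was below 0 (-0.05), and TRIM4 also lost its call without NC replicate 2 (adjusted p = 0.111). Beside these rises, the 58 leukocyte-restricted genes had a median log2 fold change of 1.18, from 0.49 to 1.78.

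TRIM6 (chr11:5596109-5612958, plus strand, GRCh38 like all positions here) had the largest fall of the family. This PRY-SPRY ligase, which makes ubiquitin chains that activate the kinase IKBKE, had 0.0508, 0.102 and 0.0507 CPM in KD, against 6.5, 5.66 and 5.47 CPM in NC. The counts were 2, 4 and 2 in KD and 274, 232 and 247 in NC. This was a log2 fold change of -6.37 (SE 0.27, edgeR adjusted p = 1.01e-16). TRIM6 shares 1158 of its 3964 exon bases with the read-through gene TRIM6-TRIM34, and TRIM34 shares 83.6% of its own with it. The read-through gene had 402, 393 and 426 counts in KD, close to the 403, 390 and 425 counts of TRIM34, and 460, 435 and 484 in NC, against 237, 253 and 285 counts of TRIM34. Reads in shared exons cannot be assigned to one of these genes.

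TRIM7, which binds glycogenin, fell as well, with 0.788, 1.05 and 0.937 CPM in KD and 3.56, 3.46 and 2.81 CPM in NC (log2 fold change -1.82, SE 0.19, edgeR adjusted p = 5.99e-09). Smaller falls of RING-type PRY-SPRY members were those of TRIM17 (-0.87, SE 0.27), TRIM39 (-0.86, SE 0.11), TRIM68 (-0.60, SE 0.14), TRIM62 (-0.60, SE 0.23), TRIM65 (-0.59, SE 0.098), TRIM27 (-0.48, SE 0.054) and TRIM26 (-0.33, SE 0.085). Each value is a log2 fold change, KD over NC. TRIM65, an activator of the RNA sensor MDA5, and TRIM27, first known as a fusion partner of the RET kinase, thus went against TRIM21 and TRIM38. TRIM39 shares 29.5% of its exon bases with the read-through gene TRIM39-RPP21 on the same strand (log2 fold change -0.97). It shares 15.2% with HCG18 on the other strand, so its own level is uncertain. The call of TRIM62 was lost without KD replicate 2 (edgeR adjusted p = 0.110), KD replicate 3 (adjusted p = 0.0808) or NC replicate 2 (adjusted p = 0.0581). TRIM11 did not pass (log2 fold change -0.11, SE 0.050, edgeR adjusted p = 0.0501) but did without KD replicate 3 (adjusted p = 0.0491) or NC replicate 3 (adjusted p = 0.0276), by library size (-0.30, adjusted p = 4.29e-05) and on the leukocyte scale (-1.35). TRIM72, a membrane repair factor of muscle, was low in both groups (0.458 ± 0.256 CPM in KD and 0.401 ± 0.160 CPM in NC, log2 fold change 0.20, SE 0.43, edgeR adjusted p = 0.689).

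Of the 6 tested members without a C-terminal domain, 3 rose and 3 fell on the scale of all genes (36.2% and 40.3% of all tested genes), while the leukocyte scale put all 6 lower, as it did 84.4% of all tested genes. TRIM56 (chr7:101085481-101097967, plus strand), which acts with the DNA sensor adaptor STING, had 209.6, 207 and 207 CPM in KD, against 136, 137 and 136 CPM in NC. The replicates of each group were nearly level and the groups far apart on this scale (log2 fold change 0.61, SE 0.038, edgeR adjusted p = 2.68e-13, and -0.63 on the leukocyte scale). TRIM8, a positive regulator of NF-kB signalling, had 75.7, 71.7 and 70.5 CPM in KD and 37.7, 34.2 and 39.1 CPM in NC. It rose on the scale of all genes (log2 fold change 0.97, SE 0.051, edgeR adjusted p = 6.81e-15) and was at -0.27 on the leukocyte scale. A divergent gene on the other strand, TRIM8-DT, covers 19.3% of its exon bases and had 467, 378 and 323 counts in KD, against 175, 155 and 204 in NC. PML, the scaffold of nuclear bodies, had 17.3, 17.3 and 19.1 CPM in KD and 13.6, 13.8 and 14.3 CPM in NC. The groups did not overlap (log2 fold change 0.36, SE 0.072, edgeR adjusted p = 6.79e-05), and the leukocyte scale gave -0.88.

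TRIM73 and TRIM74, near-identical copies of a piece of TRIM50 on chromosome 7, fell. TRIM73 had 6.53, 6.79 and 6.33 CPM in KD and 17.3, 16.6 and 15.4 CPM in NC (log2 fold change -1.33, SE 0.084, edgeR adjusted p = 3.09e-13). TRIM74 had a log2 fold change of -0.99 (SE 0.18). Reads of these copies can be exchanged between them, so their separate levels are uncertain. TRIM52, a short member with a long acidic loop, fell slightly (-0.16, SE 0.046).

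**Figure D3:**
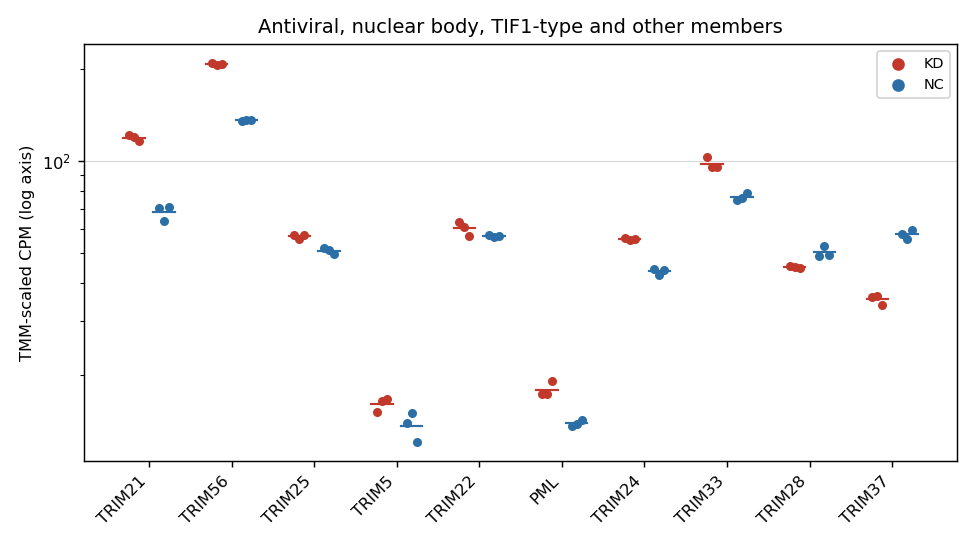
TMM-scaled CPM on a log axis in each library for TRIM21, TRIM56, TRIM25, TRIM5, TRIM22, PML, TRIM24, TRIM33, TRIM28 and TRIM37, KD left and NC right, with a line at the mean of 3. TRIM21 (mean 119.5 CPM in KD and 68.3 CPM in NC) and TRIM56 (208 CPM in KD and 136.3 CPM in NC) stand apart most among those that rose, TRIM37 among those that fell, and the TRIM22 points overlap; all 10 are below 0 on the leukocyte scale.

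The chromatin regulators with a PHD finger and a bromodomain changed little. TRIM24, a coregulator of nuclear receptors, had 56.3, 55.1 and 55.7 CPM in KD and 44.5, 42.4 and 44.2 CPM in NC. TRIM33, which binds SMAD proteins and the myeloid factor PU.1, had 103, 95.6 and 95.6 CPM in KD, against 74.8, 76.0 and 78.5 CPM in NC. Both rose by about the same amount on the scale of all genes (log2 fold change 0.35 with an SE of 0.046 for TRIM24 and 0.36 with an SE of 0.043 for TRIM33, edgeR adjusted p = 1.70e-07 and 4.39e-08) and were at -0.89 and -0.88 on the leukocyte scale. TRIM28 (KAP1), the corepressor of the KRAB zinc finger proteins, had 45.4, 45.2 and 44.8 CPM in KD and 48.9, 52.9 and 49.5 CPM in NC. It fell by 0.16 (SE 0.047, edgeR adjusted p = 0.00389). TRIM66, which lacks the RING finger, did not pass (log2 fold change 0.13, SE 0.11, edgeR adjusted p = 0.297) and was at -0.06 with library sizes alone and -1.12 on the leukocyte scale.

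Of the 3 members with a MATH, ARF or filamin domain 3 were lower in KD, and of the 2 membrane-anchored members 1 was lower and 1 higher, where 40.3% of all tested genes were lower and 36.2% higher. TRIM37, a ligase of the centrosome and of chromatin, had 35.9, 36.2 and 34.0 CPM in KD and 57.9, 55.7 and 59.8 CPM in NC, without overlap (log2 fold change -0.71, SE 0.049, edgeR adjusted p = 1.38e-12). TRIM45 (chr1:117111060-117122587, minus strand), with a filamin domain, had 0.152, 0.102 and 0.152 CPM in KD, against 3.53, 3.93 and 4.25 CPM in NC. These were 6, 4 and 6 counts in KD and 149, 161 and 192 counts in NC, and the log2 fold change was -4.82 (SE 0.26, edgeR adjusted p = 1.52e-14). TRIM23, which has an ARF domain and acts in autophagy through the kinase TBK1, fell by 0.26 (SE 0.075). TRIM59, anchored in membranes, had 6.20, 5.87 and 7.57 CPM in KD and 18.3, 20.8 and 17.9 CPM in NC (log2 fold change -1.54, SE 0.094, edgeR adjusted p = 1.30e-13). It overlaps the condensin gene SMC4 on the other strand over 19.9% of its exon bases, and SMC4 had 8215, 8107 and 7750 counts in KD, against 24317, 22419 and 26769 in NC. The other membrane member, TRIM13 of the endoplasmic reticulum, rose by 0.42 (SE 0.080, edgeR adjusted p = 5.08e-05), with -0.83 on the leukocyte scale.

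Apart from TRIM66, described above, 4 members without a RING finger were tested, and these 4 were lower in KD, where 40.3% of all tested genes were lower. TRIM16L had 0.407, 0.612 and 0.456 CPM in KD and 2.89, 2.05 and 2.70 CPM in NC (log2 fold change -2.37, SE 0.24, edgeR adjusted p = 3.01e-09). Its close relative TRIM16, which acts in the response to damaged lysosomes, was at 4.16 ± 0.819 CPM in KD and 8.80 ± 0.818 CPM in NC (log2 fold change -1.08, SE 0.13, edgeR adjusted p = 3.13e-08), and reads can be shared between them. TRIM14, an adaptor at the mitochondrial antiviral protein MAVS, was at 47.5 ± 2.86 CPM in KD and 55.7 ± 1.52 CPM in NC (log2 fold change -0.23, SE 0.049, edgeR adjusted p = 1.90e-04). TRIM44 was at 166 ± 3.53 CPM in KD and 193 ± 13.4 CPM in NC (log2 fold change -0.22, SE 0.046, edgeR adjusted p = 1.05e-04). TRIM29, the fifth of them, had 2, 6 and 2 counts in KD and 0, 2 and 2 in NC and was not tested.

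Levels were compared between members per length, as CPM per kilobase of exon. TRIM21 was the most abundant in both groups, at 61.8 ± 1.33 in KD and 35.3 ± 2.00 in NC (CPM per kilobase, mean ± SD, n = 3 each). In KD it was followed by TRIM56 (18.7 ± 0.128), TRIM46 (14.9 ± 0.778), TRIM54 (14.0 ± 0.761) and TRIM44 (12.6 ± 0.269), of which TRIM46 and TRIM54 lay within their spread of each other. In NC the order after TRIM21 was TRIM44 (14.8 ± 1.03), TRIM56 (12.2 ± 0.0526), TRIM28 (11.7 ± 0.508) and TRIM37 (10.5 ± 0.377), with TRIM28 and TRIM56 within their spread. The muscle gene TRIM54 and the axonal gene TRIM46 thus ranked 4 and 3 of 76 in KD, against 16 and 11 in NC. The family as a whole took 1579 to 1608 CPM of each KD library and 1568 to 1573 CPM of each NC library, by library size alone.

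**Figure D4:**
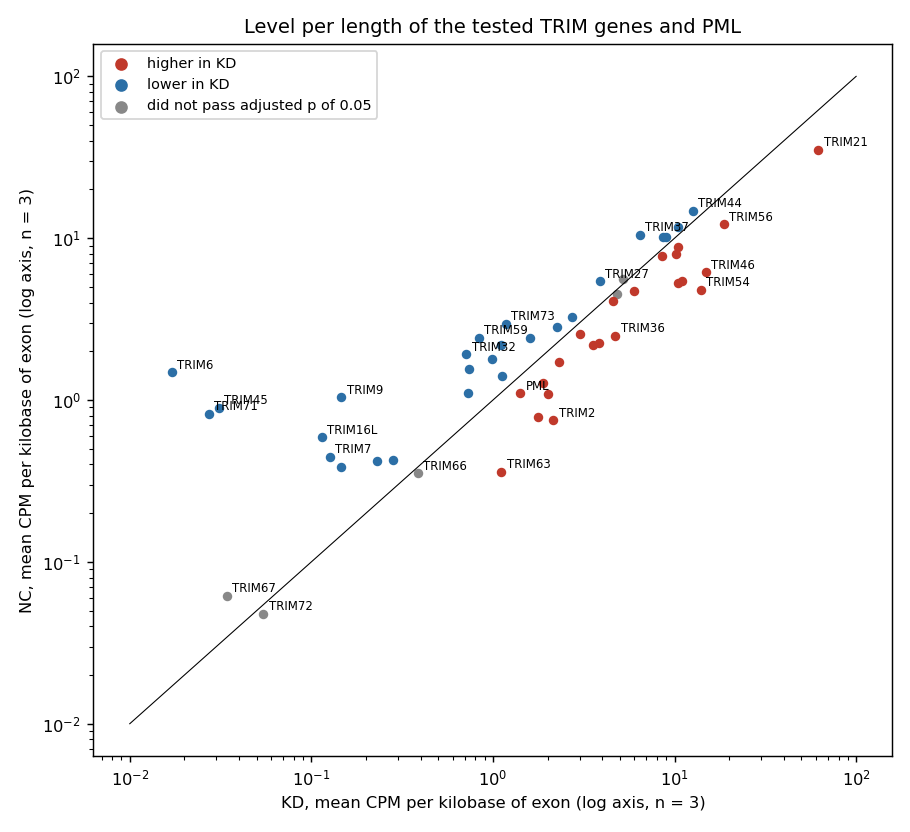
Mean CPM per kilobase of exon on the TMM scale in KD (x axis) and NC (y axis), both on log axes, for the 53 tested members (n = 3 each), with a line of equal level. TRIM21 is at the top right at 61.8 in KD and 35.3 in NC, and TRIM6, TRIM71 and TRIM45 lie far above the line, below 0.04 in KD; on the leukocyte scale points right of the line move toward or across it.

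In several clusters neighbouring members went opposite ways. Those less than 3 Mb apart on the deposited coordinates (GRCh38) were taken as a cluster. The calls are to be read against all tested genes, of which 36.2% were higher and 40.3% lower. Whether neighbours differed from each other more than other genes do was not tested. On chromosome 11, 8 members from 4384897 to 8682694 were all tested, and 3 rose (TRIM21, TRIM34, TRIM5), 3 fell (TRIM68, TRIM6, TRIM3) and 2 did not pass (TRIM22, TRIM66). On chromosome 5, TRIM7, TRIM41 and TRIM52 lie within 0.0672 Mb (181193924 to 181261150), and TRIM41 rose while TRIM7 and TRIM52 fell. The neighbours TRIM47 and TRIM65 on chromosome 17 went opposite ways, at 0.88 and -0.59. On chromosome 6, 8 members from 25962802 to 30343729 gave 1 higher (TRIM38) and 3 lower (TRIM27, TRIM26, TRIM39) of 4 tested. On chromosome 7, by contrast, TRIM4 and TRIM56 both rose and the copies TRIM73 and TRIM74 both fell. On the leukocyte scale TRIM4, TRIM56, TRIM21, TRIM34, TRIM5, TRIM41, TRIM47 and TRIM38 were lower too.

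The untested members were at or near 0. The 16 with no count in any library were TRIM42, TRIM43B, TRIM48, TRIM49, TRIM49B, TRIM49C, TRIM51, TRIM51G, TRIM60, TRIM61, TRIM64, TRIM64B, TRIM64C, TRIM75, TRIM77 and the pseudogene TRIM80P. The TRIM43, TRIM49, TRIM51 and TRIM64 genes are near-identical copies, so reads of them could have been lost or split in counting. TRIM10, an erythroid member, had 0 counts in all KD libraries and 8, 4 and 8 counts in NC, and TRIM15 had 0 in all KD libraries and 6, 0 and 4 in NC. TRIM50 had 5, 3 and 3 counts in KD and 8, 4 and 3 in NC. TRIM31 had 2, 1 and 2 counts in KD and 2, 1 and 0 in NC, while TRIM40 had a single count in KD replicate 1 and TRIM43 had 2 counts in NC replicate 3.

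**Figure D5:**
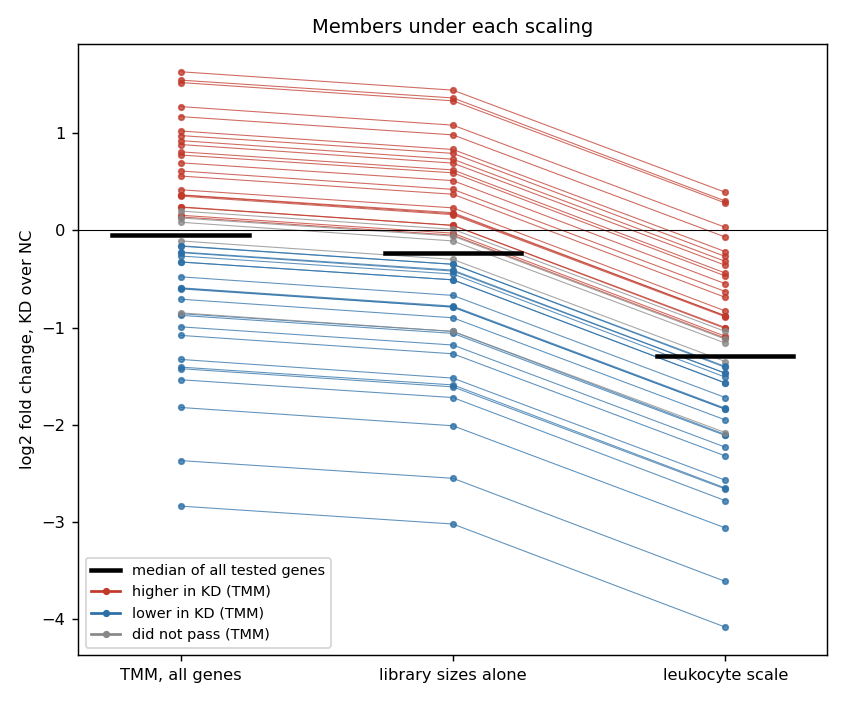
The log2 fold change, KD over NC, of tested members under TMM over all genes, library sizes alone and the leukocyte scale, each line being a member and the thick bars the median of all tested genes (-0.05, -0.23 and -1.29). TRIM6, TRIM71 and TRIM45 are below the range drawn; on the leukocyte scale TRIM63, TRIM54, TRIM2 and TRIM46 remain above 0, and the members keep nearly the same distances from each other.

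The genes that TRIM proteins work with were counted from 5 lists, to be read against all tested genes, of which 36.2% were higher and 40.3% lower (28.4% and 47.3% by library size, 3.09% and 84.4% on the leukocyte scale). Of 21 genes of nucleic acid sensing, which several TRIM ligases act on, 18 were higher (85.7%) and 2 lower (9.52%) in KD, with a median log2 fold change of 0.74, but the leukocyte scale gave 1 higher and 17 lower, where the list's median was -0.50 beside -1.29 for all genes. TAB2, an adaptor of the kinase TAK1, stood at 299 ± 4.87 CPM in KD and 118 ± 1.40 CPM in NC (log2 fold change 1.34, SE 0.040) and remained higher on the leukocyte scale at 0.10. TANK (1.15, SE 0.040), the inhibitor NFKBIA (1.09, SE 0.042) and IKBKE (1.04, SE 0.046) rose on the scale of all genes and by library size (0.96, 0.91 and 0.85) but were lower on the leukocyte scale, at -0.09, -0.15 and -0.20. RIGI, the target of TRIM25, was at 31.2 CPM in KD and 22.9 CPM in NC (log2 fold change 0.45, SE 0.061, and -0.79 on the leukocyte scale), and MAVS, the partner of TRIM14, fell (log2 fold change -0.59, SE 0.054); both were chosen after their values were seen.

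PML nuclear body and SUMO genes were 13 higher (56.5%) and 6 lower (26.1%) of 23 tested, against 36.2% and 40.3% of all tested genes, with a median of 0.30, and the leukocyte scale gave 0 higher and 20 lower. SP100, the resident partner of PML, stood at 394.5 ± 18 CPM in KD and 167.5 ± 5.80 CPM in NC (log2 fold change 1.24, SE 0.044), at -0.01 on the leukocyte scale. SP140L (1.22, SE 0.050) and the kinase HIPK2 (1.14, SE 0.041) rose with it, at -0.02 and -0.10 on the leukocyte scale, and the SUMO protease SENP1 fell (-1.41, SE 0.069). The KRAB and TRIM28 corepressor partners were 5 higher (29.4%) and 10 lower (58.8%) of 17 tested, against the same 36.2% and 40.3%, with a median of -0.21. UHRF1, which takes part in the copying of DNA methylation in S phase, fell by 1.46 (SE 0.047). The heterochromatin protein CBX1 fell by 1.12 (SE 0.045) and the deacetylase HDAC1 by 0.54 (SE 0.041). MORC2 rose by 0.59 (SE 0.044) on the scale of all genes and was at -0.65 on the leukocyte scale. By library size this list had 3 higher and 11 lower, and with the leukocyte scale 0 and 17.

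Ubiquitin and E2 genes were 11 higher (55.0%) and 6 lower (30%) of 20 tested, where 36.2% and 40.3% of all tested genes were, with a median of 0.19, whereas library sizes alone gave 6 higher and 8 lower, and the leukocyte scale 0 and 20. UBB, which encodes a chain of ubiquitin units, stood at 447 ± 1.59 CPM in KD and 839 ± 9.52 CPM in NC (log2 fold change -0.91, SE 0.041). RPS27A fell (-0.50, SE 0.039), and UBE2V1, a partner of the K63-chain enzyme UBE2N, rose (0.39, SE 0.040, and -0.85 on the leukocyte scale). Relatives of the family outside the symbol rule were 4 higher (40.0%) and 6 lower (60.0%) of 10 tested, beside 36.2% and 40.3% of all tested genes, with a median of -0.84, and 0 higher on the leukocyte scale. MID1 (TRIM18), a microtubule-bound ligase of midline development, stood at 0.220 ± 0.0592 CPM in KD and 10.4 ± 0.580 CPM in NC (log2 fold change -5.54, SE 0.19). FSD1 (-5.38, SE 0.20) and RNF207 (-2.65, SE 0.20) fell too. MEFV (TRIM20), the pyrin inflammasome sensor of myeloid cells, stood at 11 ± 0.789 CPM in KD and 4.27 ± 0.446 CPM in NC (log2 fold change 1.36, SE 0.11) and did not pass on the leukocyte scale, at 0.12.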

How the data were processed

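The authors deposited raw counts for 61267 genes in 6 libraries, beside each gene's exons and length. The submitters' processing notes name fastp 0.23.0 and GRCh38. Aligner, counter, annotation and strand setting: not given in the sources used here. Small counts were mostly even (67.8% to 70.3% of those from 1 to 20), which would follow if each mate of a fragment had been counted separately. No pair of libraries in a group held identical counts (chi-square per degree of freedom 3.24 to 6.46).

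KD was compared with NC by edgeR 4.0.16 (R 4.3.3), using filterByExpr (21905 genes), TMM and the robust quasi-likelihood test, two-sided, with p-values adjusted over all tested genes. An SE equals the size of the log2 fold change over the root of its F statistic. The steps were also run on simulated data in which only a small share of genes changed, evenly up and down. That run cannot test the choice of scaling, on which the directions depend here. CPM per kilobase uses the deposited exon length, which joins all transcripts. Values in every library are given for 11 set members and for the 10 largest called rises and falls whose higher group averaged 1 CPM or more, and up to 4 genes per partner list with the smallest p. Members, lists and the leukocyte-restricted genes were chosen with earlier results of these data known. Promoter letters come from RefSeq (GRCh38.p14). Alternatives used DESeq2 1.42.0 and limma 3.58.1, and scripts Python 3.11.15.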

Additional observations from a re-analysis of the deposited data

How the results depend on the processing

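Log2 fold changes of the 53 tested members kept their direction and their side of the threshold under DESeq2 size factors, DESeq2, limma-voom and the fit without robust estimation. On the leukocyte scale 21 members reversed: PML (-0.88), TRIM4 (-1.11), TRIM5 (-1.01), TRIM8 (-0.27), TRIM13 (-0.83), TRIM21 (-0.44), TRIM22 (-1.16), TRIM24 (-0.89), TRIM25 (-1.09), TRIM33 (-0.88), TRIM34 (-0.47), TRIM35 (-0.22), TRIM36 (-0.32), TRIM38 (-0.55), TRIM41 (-1.003), TRIM47 (-0.36), TRIM56 (-0.63), TRIM58 (-0.074), TRIM66 (-1.12), TRIM69 (-0.69) and TRIM72 (-1.035). The scale itself lowers all values by about the same amount. With library sizes alone TRIM4 (-0.05), TRIM22 (-0.11), TRIM25 (-0.034) and TRIM66 (-0.061) reversed. Leaving out single libraries reversed TRIM72 (log2 fold change from -0.266 without KD replicate 2 to 0.557 without KD replicate 3), and gave 21 to 23 members higher and 25 to 27 lower.

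On the leukocyte scale 677 of all tested genes were higher and 18484 lower, with 2 and 48 members; a test against a fold of 1.5 gave 3939 and 5716 genes, with 12 and 14 members. That test counts only larger changes. For the partner lists, the leukocyte scale gave 0 higher and 20 lower ubiquitin and E2 genes, 0 higher relatives of the family, 1 higher and 17 lower sensing genes, 0 and 17 corepressor partners, and 0 and 20 nuclear body genes. The test against a fold of 1.5 gave 2 higher and 1 lower, 1 higher, 11 higher and 0 lower, 0 and 2, and 6 and 2 in the same order. Library sizes alone gave 6 higher ubiquitin and E2 genes and 3 higher corepressor partners.

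Replicate numbers in KD and NC showed no sign of pairing the samples (correlations of same-numbered deviations -0.014 to 0.015). With 3 libraries per group this cannot exclude a shared origin by number. A replicate block gave 7763 higher and 8665 lower genes and 22 and 26 members, changing no member's call. TRIM11 passed without a filter (edgeR adjusted p = 0.0495), at a mean of at least 1 CPM (0.0185) and with counts divided by 2 (0.0380). Counts of members such as TRIM6 and TRIM45 in KD are too few to place their level.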
